A study of Mus musculus with 12 samples.

Results

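The receptors described here are 10 chemokine and sphingosine 1-phosphate (S1P) receptors, Ccr2, Ccr4, Ccr6, Ccr7, Ccr8, Ccr9, Cxcr4, Cxcr6, S1pr1 and S1pr4. They were listed by name, and all 10 were found by symbol among the 24346 gene symbols of each library's table. RNA was sequenced from group 2 innate lymphoid cells (ILC2s) of the mouse lung, which the study sorts as CD45-positive, lineage-negative cells with Thy1.2 and the IL-33 receptor ST2 on their surface. The mice were young adults of the C57BL/6 strain, and 4 groups of 3 libraries crossed genotype with treatment. WT PBS and WT IL-33 came from wild-type mice. 6DKO PBS and 6DKO IL-33 came from Sema6d-deficient mice, which lack the guidance protein semaphorin 6D systemically and not in ILC2s alone. The control mice received PBS through the nose, and the treated mice IL-33, an alarm cytokine that activates ILC2s, for 3 days. The labels give 50 ng of IL-33, and the study's methods name another dose. The labels do not say whether each library came from a separate mouse, so the p-values measure the spread between these libraries, which may be technical in part.

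Chemokines are small secreted proteins that guide leukocytes along a gradient, through membrane receptors that signal by inhibitory G proteins. S1P is a lipid that is abundant in blood and lymph and scarce within tissue. S1pr1 draws lymphocytes out of tissue toward it, and the surface protein CD69 holds S1pr1 inside the cell. Lung ILC2s are largely tissue resident, and these receptors bear on how such cells enter, stay in and leave an organ.

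The values are FPKM, fragments scaled for transcript length and for the number of mapped fragments, so that levels can be set side by side between genes. Fold changes are differences in log2(FPKM + 1), which understates the change of low genes. A gene was called where limma's moderated test over 11471 genes gave an adjusted p under 0.05. Of the 10 receptors, 9 averaged 0.5 FPKM or more over the 12 libraries, and Ccr6 was tested because it is listed. Total read numbers were not given, but the steps between low values showed relative depths from 0.739 in WT PBS replicate 1 to 1.39 in WT IL-33 replicate 1, with WT IL-33 replicate 3 set to 1.

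Sema6d was read in both genotypes. Its level was 27.5, 46.1 and 37.5 FPKM in the WT PBS libraries, against 29.0, 22.9 and 19.8 FPKM under the same treatment in 6DKO. After IL-33, WT held 19.7, 35.5 and 28.7 FPKM and 6DKO 15.4, 13.6 and 13.8 FPKM. The genotypes overlapped under PBS and not under IL-33, with log2 differences of -0.60 (SE 0.30, limma adjusted p 0.437) and -0.89 (SE 0.30, limma adjusted p 1). A value for the whole gene does not show which exons were read, so it does not check the deletion.

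ILC2 transcripts were present in all 12 libraries. The 10 ILC2 markers summed to between 3475 and 5695 FPKM, with the growth factor gene Areg the most abundant at a mean of 1602 FPKM. Il1rl1, which encodes ST2, lay between 117 and 269 FPKM, and Gata3, the lineage factor of ILC2s, between 295 and 690 FPKM. After IL-33, 4 of these 10 markers, named after their values were seen, were called in the average, against 9.06% of tested genes. Klrg1 was higher by 0.93 (SE 0.20, limma adjusted p 0.0148), while Il2ra differed by -1.86 (SE 0.17, limma adjusted p 7.52e-05), Areg by -0.52 (SE 0.12, limma adjusted p 0.0205) and Il5 by -0.81 (SE 0.19, limma adjusted p 0.0212). Il2ra was also called lower in WT (-2.16, limma adjusted p 0.000752) and in 6DKO (-1.57, limma adjusted p 0.00583), and Klrg1 higher in WT (1.19, limma adjusted p 0.0384). Of the T cell markers, Cd3g averaged 284 FPKM, while Cd4 was listed at 0 in every library and Cd8a reached at most 0.393 FPKM.

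Several libraries stood apart. In the PBS libraries, 169 to 641 of the 3617 genes that averaged 5 to 20 FPKM were listed at 0, against 25 to 50 in the IL-33 libraries. Replicates correlated across genes at 0.763 to 0.819 under PBS and at 0.934 to 0.951 under IL-33 (Pearson's r, a description, since genes are not independent). 6DKO PBS replicate 1 held the most such zeros, and Tbp and Gusb, which every cell uses, were listed at 0 there. A value of 0 is therefore given as listed at 0 and not as absence. 6DKO PBS replicate 2 carried the natural killer cell genes Ncr1 at 58.9 FPKM and Prf1 at 36.3 FPKM. The 13 macrophage or monocyte markers summed to 189 FPKM in that library, to 423 FPKM in 6DKO IL-33 replicate 2 and to 145 FPKM in 6DKO IL-33 replicate 3, and to at most 16.6 FPKM in the other libraries. Chil3, the most abundant of them on average, stood at 51.1, 394 and 83.1 FPKM in these 3 libraries. It was the smaller part of the sum in 6DKO PBS replicate 2. Lyz2, the next by mean, averaged 18.8 FPKM over the 12 libraries, and Csf1r was listed at 0 in each of these 3. The lineage markers of the gate include F4/80, CD11c and Gr-1 of myeloid cells and NK1.1 of natural killer cells. Whether such cells remained after the sort was not tested. The part of such RNA in the receptor values was not tested. Counts are also given without these 3 libraries, and without the PBS libraries with the most zeros (WT PBS replicates 1 and 2 and 6DKO PBS replicate 1), settings chosen after seeing the data. The former leaves 1 library in 6DKO IL-33 and the latter 1 in WT PBS, replicate 3, and each is assumed to vary like the other groups.

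Ccr8, Cxcr6 and Ccr2, which bind chemokines of barrier tissue and inflammation, were the most abundant receptors. Ccr8 is the receptor for Ccl1. The 3 WT PBS libraries held 3480, 3997 and 4634 FPKM of it, and the 6DKO PBS libraries held 3982, 3256 and 4053 FPKM. After IL-33, the WT libraries held 1674, 2446 and 2501 FPKM and the 6DKO libraries 1886, 1992 and 2161 FPKM. Every IL-33 library lay below every PBS library, and the genotypes overlapped within each treatment. Cxcr6, the receptor for Cxcl16, was read at 2233, 2137 and 1663 FPKM in WT PBS, and 6DKO PBS held 1883, 2148 and 2045 FPKM of it. After IL-33, WT held 1976, 2264 and 2392 FPKM and 6DKO 1543, 1809 and 1663 FPKM. Under IL-33 all 6DKO libraries lay below all WT libraries, and under PBS the genotypes overlapped. Ccr8 and Cxcr6 together made up between 91.0% and 94.6% of the summed FPKM of the 10 receptors. The ratio of Ccr8 to Cxcr6 was between 1.52 and 2.79 across the PBS libraries and between 0.847 and 1.30 across the IL-33 libraries.

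Ccr2 binds Ccl2 and its relatives and brings monocytes and other leukocytes to inflamed tissue. The WT PBS libraries held 305, 378 and 343 FPKM of it and the 6DKO PBS libraries 334, 327 and 311 FPKM. After IL-33, WT libraries were at 92.1, 109 and 85.3 FPKM and 6DKO libraries at 148, 93.3 and 97.4 FPKM. All 6 PBS libraries lay above all 6 IL-33 libraries, and the highest IL-33 library was 6DKO replicate 1.

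The other homing receptors were lower. Ccr4, the receptor for Ccl17 and Ccl22, was read at 13.3, 0.426 and 23.8 FPKM in WT PBS, and the other groups lay between 19.1 and 30.5 FPKM. Within a tolerance of 0.05 of a read, its values were whole numbers of reads, 8 in WT PBS replicate 2 and 207 to 708 in the other libraries. Ccr9, which guides cells to the small intestine, was spread from 2.04 to 39.6 FPKM under PBS and from 1.33 to 8.93 FPKM after IL-33, so that the treatments overlapped. Ccr6, the receptor for Ccl20, was listed at 0 in 11 libraries and at 1.25 FPKM in 6DKO IL-33 replicate 3.

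Cxcr4 holds cells near stromal sources of Cxcl12, Ccr7 and S1pr1 take cells into lymph, and S1pr4 is a relative of S1pr1 found mainly on blood cells. For Cxcr4, the WT PBS libraries held 41.6, 23.6 and 32.2 FPKM and the 6DKO PBS libraries 68.0, 33.2 and 24.2 FPKM. After IL-33, WT held 49.4, 58.1 and 68.4 FPKM and 6DKO 68.7, 69.0 and 85.4 FPKM. Within each genotype the IL-33 libraries lay above the PBS libraries, though 6DKO PBS replicate 1 nearly reached them. Ccr7 was read at 11.0, 12.3 and 31.5 FPKM in WT PBS, and 6DKO PBS held 0.0845, 0 and 18.4 FPKM. After IL-33, WT held 25.1, 44.0 and 78.6 FPKM and 6DKO 63.5, 56.6 and 112 FPKM. The treatments overlapped in WT, through WT PBS replicate 3, and not in 6DKO.

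For S1pr1, the WT PBS libraries held 20.2, 0 and 5.32 FPKM and the 6DKO PBS libraries 0, 20.3 and 5.73 FPKM. After IL-33, WT held 16.1, 7.99 and 19.0 FPKM and 6DKO 27.1, 26.0 and 23.2 FPKM. In whole reads, S1pr1 had 203 to 699 in the IL-33 libraries and at most 403 in the PBS libraries, 2 of which listed it at 0. S1pr4 was read at 24.1, 25.3 and 9.90 FPKM in WT PBS against 9.37, 5.01 and 3.03 FPKM in 6DKO PBS, which did not overlap. After IL-33 it lay between 9.31 and 13.1 FPKM in both genotypes.

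By group means, the order began with Ccr8, Cxcr6 and Ccr2 in WT PBS, 6DKO PBS and 6DKO IL-33, with no overlap between these 3. In WT IL-33, Cxcr6 (2211 ± 213 FPKM, SD, n = 3) and Ccr8 (2207 ± 462 FPKM, SD, n = 3) did not differ beyond their spread. Below Ccr2, the order under PBS ran from Cxcr4 down to Ccr6, and each of these overlapped with the next, apart from S1pr4 above Ccr6 in 6DKO. In WT IL-33, Cxcr4, Ccr7 and Ccr4 each overlapped with the next, and Ccr4 stood clear of S1pr1 and S1pr4, which overlapped with each other while S1pr4 stood clear of Ccr9 below it. In 6DKO IL-33, Ccr7 overlapped with Ccr2 above it and Cxcr4 below it, while Cxcr4 stood clear of S1pr1 and Ccr4.

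**Figure D1:**
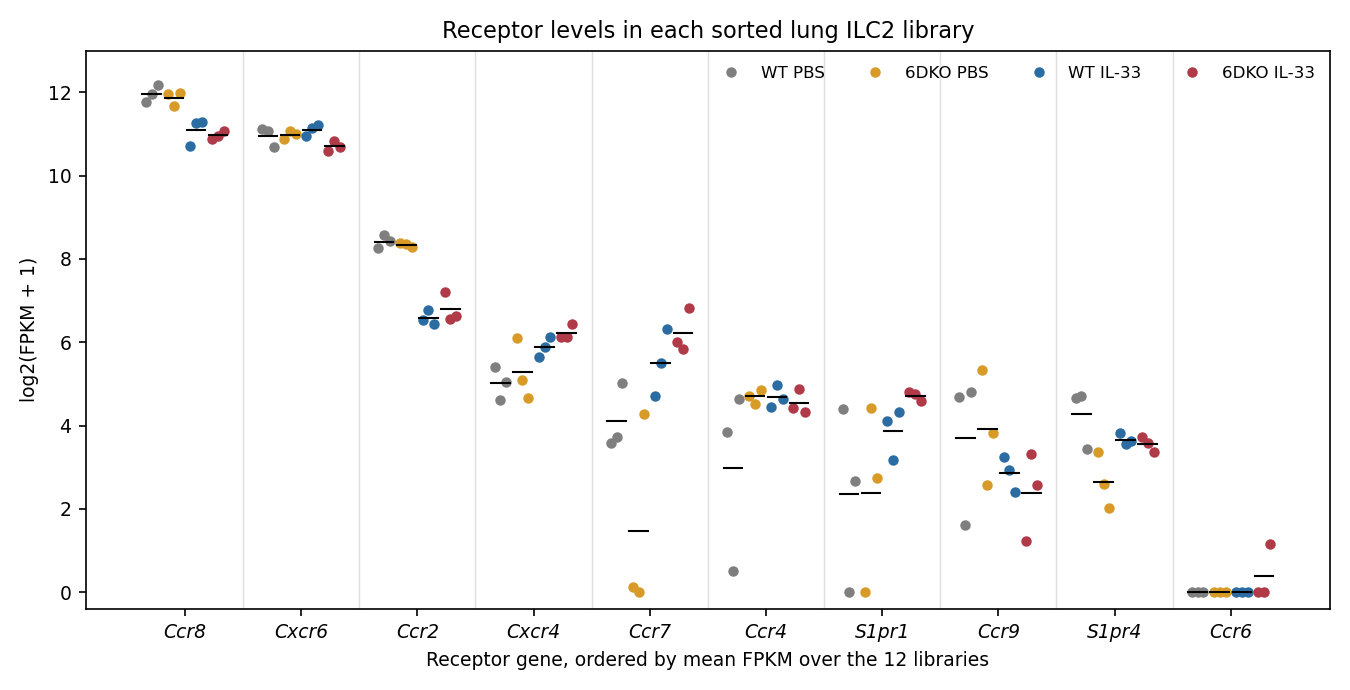
Each point is 1 library, and the vertical axis is log2(FPKM + 1) for the 10 receptors on the horizontal axis, with a black line at the mean of the 3 libraries of a group. Ccr8 and Ccr2 are lower in all 6 IL-33 libraries than in all 6 PBS libraries, while S1pr1 and Ccr9 are spread widely within both PBS groups, Ccr7 within 6DKO PBS and Ccr4 within WT PBS.

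The first comparison asked how the receptors of WT ILC2s differed after IL-33. Ccr2 and Ccr8 fell, so that 2 of the 10 receptors were called, against 4.38% of tested genes. Ccr2 fell by 1.83 on the log2 scale (SE 0.19, limma adjusted p 0.000461), with a mean 3.59-fold higher in PBS than in IL-33 libraries. Ccr8 fell by 0.88 on the log2 scale (SE 0.16, limma adjusted p 0.012), with a mean 1.83-fold higher in PBS. Cxcr4 differed by 0.86 (SE 0.35, limma adjusted p 0.224) and was not called. With Ccr2 and Ccr8, it made 3 of the 10 receptors whose libraries did not overlap, against 24.9% of tested genes. For each of them the two-sided exact permutation test gave p = 0.1, the smallest that 3 against 3 libraries allow. The median log2 difference was 0.07 over the 10 receptors and 0.16 over all tested genes. Quantile normalization moved that median of all genes to -0.05, and the called genes from 314 higher and 188 lower to 246 higher and 236 lower. The call of Ccr8 was lost without a trend in limma's variance prior (adjusted p 0.0911), with array weights (adjusted p 0.0529), in a fit of the 2 groups alone (adjusted p 0.0852) and without the 6DKO libraries that carry macrophage or natural killer genes (adjusted p 0.0574), at a difference of -0.89 to -0.88 in each.

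The same comparison in 6DKO gave 3 called receptors of 10, against 3.13% of tested genes. Ccr2 fell by 1.55 on the log2 scale (SE 0.19, limma adjusted p 0.0016), with a mean 2.87-fold higher in PBS. Ccr8 fell by 0.90 (SE 0.16, limma adjusted p 0.0148), with a mean 1.87-fold higher in PBS. Ccr7 rose by 4.76 (SE 0.98, limma adjusted p 0.0265), higher in 3 of 3 libraries, from a PBS group with 2 libraries at or near 0. In 6 of 10 receptors the libraries did not overlap, against 22.5% of tested genes. These were Ccr2, Ccr8 and Cxcr6, lower after IL-33, and Ccr7, Cxcr4 and S1pr1, higher after it. For each of the 6 the two-sided exact permutation p was 0.1. S1pr1 differed by 2.33 (SE 1.16, limma adjusted p 0.373), Cxcr4 by 0.94 (SE 0.35, limma adjusted p 0.218) and Cxcr6 by -0.28 (SE 0.13, limma adjusted p 0.323), and none of these was called. The median log2 difference was 0.12 over the receptors and 0.14 over all tested genes, which quantile normalization moved to -0.02. It also moved the called genes from 222 higher and 137 lower to 137 higher and 136 lower.

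Some of these calls in 6DKO were lost in other fits. Ccr7 was no longer called without 6DKO PBS replicate 1 (adjusted p 0.0716) or 2 (adjusted p 0.0662), without 6DKO IL-33 replicate 1 (adjusted p 0.084), 2 (adjusted p 0.0779) or 3 (adjusted p 0.114), or in a fit of the 2 groups alone (adjusted p 0.132). Its difference lay between 4.03 and 6.17 as each library was left out in turn. Ccr8 was no longer called without 6DKO IL-33 replicate 1 (-0.85, adjusted p 0.0694) or 2 (-0.89, adjusted p 0.0617), without the trend (-0.90, adjusted p 0.105) or with array weights (-0.91, adjusted p 0.0747), and its difference lay between -1.0 and -0.84 as each library was left out in turn. That of S1pr1 lay between 1.14 (without 6DKO PBS replicate 1) and 3.35 (without 6DKO PBS replicate 2), and it was called in none of these 12 fits. Cxcr4 was called without 6DKO PBS replicate 1, at 1.35 (adjusted p 0.0335). Without the 3 libraries that carry macrophage or natural killer genes, Ccr2 differed by -1.12, Ccr7 by 3.82 and Ccr8 by -1.09. No receptor kept its call in 6DKO there, and fewer genes were called among all those tested. That fit has a lone 6DKO IL-33 library, assumed to vary like the other groups. Without the PBS libraries with the most zeros, Ccr7 differed by 4.09 (adjusted p 0.0796), while Cxcr4 (1.35, adjusted p 0.0148) and S1pr4 (1.26, adjusted p 0.0405) were called.

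Averaged over the genotypes, 4 of 10 receptors were called, against 9.06% of tested genes. Ccr2 fell by 1.69 (SE 0.13, limma adjusted p 3.2e-05) and Ccr8 fell by 0.89 (SE 0.12, limma adjusted p 0.000798). Ccr7 rose by 3.08 (SE 0.69, limma adjusted p 0.0188) and Cxcr4 rose by 0.90 (SE 0.25, limma adjusted p 0.0463). Over the 6 libraries of each treatment, 2 of 10 receptors, Ccr2 and Ccr8, did not overlap, against 6.42% of tested genes. Permuting the treatment within each genotype gave an exact p of 0.005 for Ccr2, Ccr8 and Cxcr4, the smallest that the 400 assignments allow, 0.01 for Ccr7 and 0.04 for S1pr1. The called genes were 677 higher and 362 lower, and 524 higher and 518 lower with quantile normalization, which moved the median of all genes from 0.16 to -0.03. Cxcr4 was no longer called in 10 of the 12 fits that left out 1 library (difference 0.74 to 1.10 over the 12), with no filter on low values (adjusted p 0.0583) or without the trend (adjusted p 0.0717). Its adjusted p was 0.0804 and 0.0668 without WT PBS replicates 2 and 3, 0.0761 and 0.0712 without 6DKO PBS replicates 2 and 3, 0.0718, 0.0981 and 0.115 without WT IL-33 replicates 1, 2 and 3, and 0.0889, 0.0887 and 0.113 without 6DKO IL-33 replicates 1, 2 and 3. Ccr7 was no longer called without WT IL-33 replicate 3 (2.87, adjusted p 0.055), 6DKO IL-33 replicate 3 (2.93, adjusted p 0.054) or the PBS libraries with the most zeros (2.29, adjusted p 0.153, with WT PBS replicate 3 alone in its group). Without the libraries that carry macrophage or natural killer genes, Ccr2 and Ccr8 were called, and Ccr7 (2.6, adjusted p 0.237) and Cxcr4 (0.80, adjusted p 0.357) were not.

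Under PBS, 0 of the 10 receptors were called between 6DKO and WT by limma, against 0.619% of tested genes, and 2 had an unadjusted p under 0.05, Ccr7 and S1pr4, against 13% of tested genes. S1pr4 differed by -1.61 (SE 0.45, limma adjusted p 0.2). It was the 1 receptor of 10 that did not overlap, against 8.57% of tested genes, with a two-sided exact permutation p of 0.1. Ccr7 differed by -2.65 (SE 0.98, limma adjusted p 0.294) and overlapped. For the abundant receptors the intervals were narrower, with a Ccr8 difference of -0.10 (95% interval -0.46 to 0.26) and a Ccr2 difference of -0.07 (95% interval -0.49 to 0.34), and with quantile normalization the difference of Ccr8 turned to 0.04 and that of Ccr9 from 0.22 to -0.06. S1pr4 was called without WT PBS replicate 3, at -2.03 (adjusted p 0.048), and Ccr7 without 6DKO PBS replicate 3, at -4.06 (adjusted p 0.0136).

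Under IL-33, 0 of the 10 receptors were called between 6DKO and WT by limma, against 0.00872% of tested genes, and 1 had an unadjusted p under 0.05, against 1.98% of tested genes. This was Cxcr6, with a difference of -0.40 (SE 0.13, 95% interval -0.68 to -0.12, limma adjusted p 1) and a mean 1.32-fold higher in WT. Cxcr4, Cxcr6 and S1pr1 were the 3 of 10 receptors that did not overlap, against 14.2% of tested genes, with a two-sided exact permutation p of 0.1 each. Ccr8 differed by -0.11 (SE 0.16, limma adjusted p 1), and by 0.01 with quantile normalization. S1pr1 was 1.77-fold and Cxcr4 1.27-fold higher in 6DKO by the group means, and neither was called. The 1 gene called in this comparison, named after its value was seen, was Sh3bgrl3, which fell by 0.97 in 6DKO (SE 0.09, limma adjusted p 0.0073), from 3981, 4196 and 4316 FPKM in WT to 2123, 2099 and 2171 FPKM. The number of genes called was 0 without WT IL-33 replicate 1 or 2 or 6DKO IL-33 replicate 1, and 0 genes were called lower without the trend in the prior.

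Whether the response to IL-33 differed between the genotypes was tested as an interaction. Of the 10 receptors 0 were called by limma, against 0.0262% of tested genes, and 3 had an unadjusted p under 0.05, against 5.75% of tested genes. Ccr7, called in 6DKO and not in WT (1.39, SE 0.98, limma adjusted p 0.522), had a difference between the responses of 3.38 (SE 1.39, limma adjusted p 0.855). That of Cxcr6 was -0.42 (SE 0.18, limma adjusted p 0.856) and that of S1pr4 1.51 (SE 0.64, limma adjusted p 0.856). For Ccr8 it was -0.01 (95% interval -0.52 to 0.50) and for Ccr2 0.29 (95% interval -0.29 to 0.87).

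**Figure D2:**
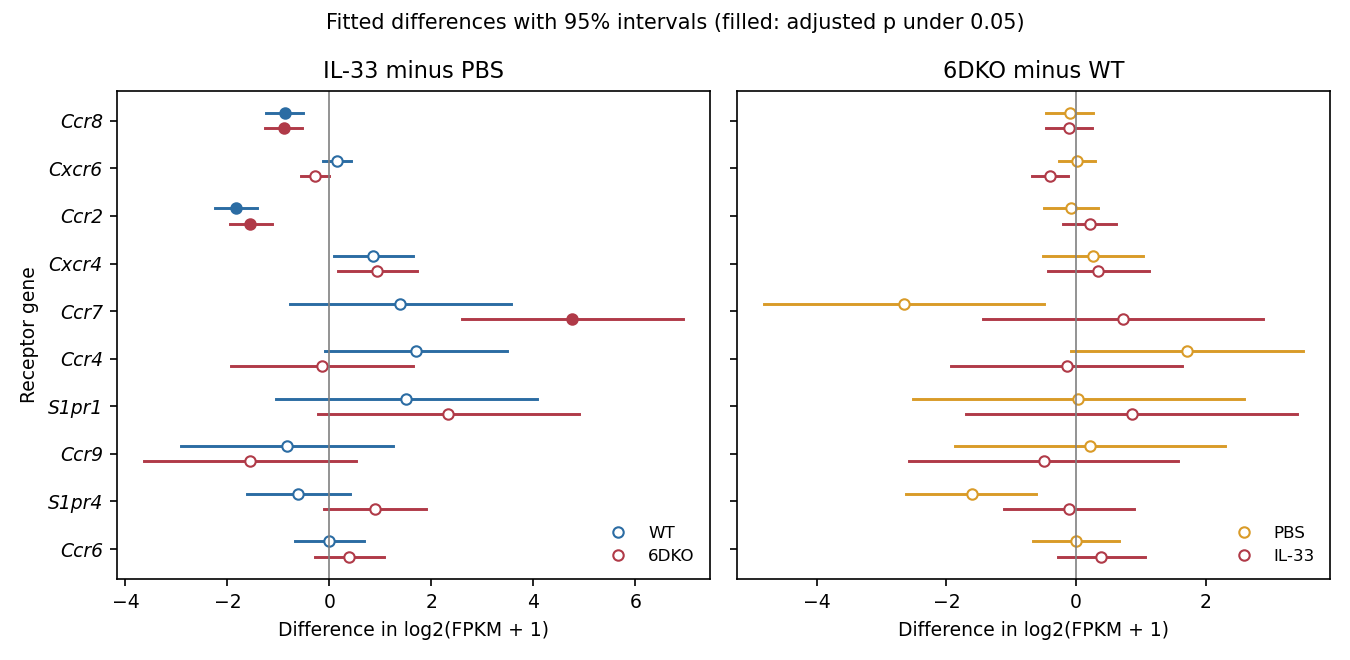
Points are fitted differences in log2(FPKM + 1) with 95% intervals from limma, IL-33 minus PBS on the left and 6DKO minus WT on the right, for the 10 receptors on the vertical axis, and filled points are called. Ccr2 and Ccr8 lie below 0 in both genotypes on the left, Ccr7 is filled in 6DKO and not in WT, and no point is filled on the right.

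Ligands of these receptors were counted from a list of 13 genes. Ccl1, the ligand of Ccr8, was transcribed by the sorted cells at 5467 to 8658 FPKM under PBS and at 577 to 1011 FPKM after IL-33. Ccl1 fell by 3.05 in WT (SE 0.20, limma adjusted p 3.28e-05) and fell by 3.30 in 6DKO (SE 0.20, limma adjusted p 1.31e-05). It was the 1 of 13 ligands called in 6DKO, against 3.13% of tested genes. In WT 1 was lower and 1 higher, against 4.38% of tested genes, and averaged over the genotypes 1 was lower and 2 higher, against 9.06%. The higher ones were Ccl25, a ligand of Ccr9, called in WT (limma adjusted p 0.025) and in the average (limma adjusted p 0.0286), and Ccl17, a ligand of Ccr4, called in the average (limma adjusted p 0.0487). Both were listed at 0 in every PBS library. After IL-33, the WT libraries held 2.02, 1.44 and 3.07 FPKM of Ccl25 and the 6DKO libraries 1.25, 0 and 0 FPKM, with an interaction of -1.25 (limma adjusted p 0.845). Of Ccl17, the WT libraries then held 0.861, 2.91 and 3.20 FPKM and the 6DKO libraries 2.50, 7.84 and 0 FPKM. With quantile normalization neither was called in the average, where Ccl25 moved from 1.01 to 0.46 (adjusted p 0.261) and Ccl17 from 1.65 to 1.14 (adjusted p 0.145), nor Ccl25 in WT, which moved from 1.64 to 0.95 (adjusted p 0.164). Array weights also ended these calls, at 1.04 for Ccl25 (adjusted p 0.163) and 1.75 for Ccl17 (adjusted p 0.194) in the average and 1.59 for Ccl25 in WT (adjusted p 0.183). Leaving out the PBS libraries with the most zeros did so at 1.01 (adjusted p 0.0903), 1.65 (adjusted p 0.164) and 1.64 (adjusted p 0.112) in the same order. That of Ccl17 was lost with no filter on low values (adjusted p 0.0633) and without the trend (adjusted p 0.0577). The call of Ccl17 was lost in 11 of 12 fits that left out 1 library, all but that without 6DKO IL-33 replicate 3 (adjusted p 0.0532 to 0.114). That of Ccl25 was lost in WT without WT PBS replicate 1 (adjusted p 0.0546) or WT IL-33 replicate 1 (adjusted p 0.0752) or 3 (adjusted p 0.0943), and in the average without WT IL-33 replicate 1 (adjusted p 0.0541) or 3 (adjusted p 0.0641). Between the genotypes, 0 ligands were called by limma, and the number with an unadjusted p under 0.05 was 0 under PBS, against 13% of tested genes, and 1 under IL-33, Ccl25, against 1.98%.

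Of the 16 other chemokine receptors, 8 averaged 0.5 FPKM or more and 1 was called, against 4.38% of tested genes in WT and 3.13% in 6DKO. This was Cx3cr1, the receptor for the membrane-bound chemokine Cx3cl1. Cx3cr1 was listed at 0 in 5 of 6 PBS libraries and at 0.739 FPKM in WT PBS replicate 3. After IL-33 it was read at 7.01, 6.30 and 9.82 FPKM in WT and 5.18, 1.99 and 2.90 FPKM in 6DKO. It rose in WT by 2.84 (SE 0.41, limma adjusted p 0.00334) and was called in 6DKO at 2.06 (limma adjusted p 0.022), there not without 6DKO IL-33 replicate 1 (adjusted p 0.0868) or 3 (adjusted p 0.0674), with quantile normalization (adjusted p 0.133), with array weights (adjusted p 0.0888) or without the libraries that carry macrophage or natural killer genes (2.63, adjusted p 0.119). Ccrl2, a receptor that binds ligand without classical signalling, averaged 165 FPKM, the highest of this list, and was not called. Of the 3 other S1P receptors and the 9 genes of S1P synthesis, breakdown and export, 0 were called by limma in any of the 6 comparisons. At an unadjusted p under 0.05 these held 1 gene, S1pr2, in the averaged response, and 1 gene, Sphk1, a kinase that makes S1P, in 6DKO after IL-33, between the genotypes under PBS and in the interaction, against 22.9% of tested genes in the average, 15.5% in 6DKO, 13% under PBS and 5.75% in the interaction. S1pr3 was listed at 0 throughout.

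Among 11 other chemoattractant receptors, 1 was called, against 0.619% of tested genes between the genotypes under PBS. This was Ltb4r1, the high-affinity receptor for leukotriene B4. Under PBS, Ltb4r1 was read at 351, 361 and 378 FPKM in 6DKO and 243, 211 and 222 FPKM in WT, a rise of 0.69 (SE 0.13, limma adjusted p 0.0473). That call was lost in 9 of 12 fits that left out 1 library, all but those without WT PBS replicate 1 or 3 or 6DKO PBS replicate 1 (adjusted p 0.055 to 0.0962, at a difference of 0.64 to 0.74 over the 12). It was also lost without the filter (adjusted p 0.0616), with quantile normalization (adjusted p 0.0709), without the trend (adjusted p 0.246), with array weights (adjusted p 0.689), in a fit of the 2 groups alone (adjusted p 0.341), without the libraries that carry macrophage or natural killer genes (0.69, adjusted p 0.103) and without the PBS libraries with the most zeros (adjusted p 0.0758).

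Genes that govern S1pr1 were counted from a list of 5, of which Cd69 was called, 1 of 5 in WT against 4.38% of tested genes, and Klf2, a factor that activates S1pr1, was not. The WT libraries held 2973, 3318 and 2682 FPKM of Cd69 under PBS, against 1454, 1461 and 1603 FPKM after IL-33. In 6DKO it lay between 2061 and 2300 FPKM under PBS and between 1753 and 2166 FPKM after IL-33. Cd69 fell by 0.99 in WT (SE 0.11, limma adjusted p 0.000752) and was not called in 6DKO (-0.15, limma adjusted p 0.548), and the interaction was 0.83 (limma adjusted p 0.227).

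Receptor coupling and desensitisation was read from 17 genes, of which 4 were called higher after IL-33 averaged over the genotypes and 0 lower, against 9.06% of tested genes called, 677 higher and 362 lower. Rgs1, Rgs10 and Rgs16 are regulators of G protein signalling, and Adrbk1 encodes a kinase that desensitises such receptors. Rgs1 rose by 0.78 (SE 0.13, limma adjusted p 0.00293) and Rgs16 by 1.30 (SE 0.29, limma adjusted p 0.0163). Rgs10 rose by 1.43 (SE 0.40, limma adjusted p 0.049) and Adrbk1 by 0.65 (SE 0.18, limma adjusted p 0.0462), calls that were lost in many of the fits that left out 1 library. That of Rgs10 was lost in 10 of 12, all but those without 6DKO PBS replicate 1 or 3 (adjusted p 0.0501 to 0.122), and that of Adrbk1 in 9 of 12, all but those without WT PBS replicate 2 or 6DKO PBS replicate 2 or 3 (adjusted p 0.0503 to 0.114). Rgs10 was also not called with a pseudocount of 0.1 (adjusted p 0.0532), with no filter (adjusted p 0.074), with a filter at a mean of 2 FPKM (adjusted p 0.0512), without the trend (adjusted p 0.0738), with array weights (adjusted p 0.0748) or without the PBS libraries with the most zeros (adjusted p 0.0585). Adrbk1 was also not called with quantile normalization (adjusted p 0.0613), without the trend (adjusted p 0.0672) or with array weights (adjusted p 0.0612). Without the libraries that carry macrophage or natural killer genes, none of the 4 was called, with differences of 0.66 for Rgs1 (adjusted p 0.0728), 1.43 for Rgs16 (adjusted p 0.153), 1.28 for Rgs10 (adjusted p 0.344) and 0.63 for Adrbk1 (adjusted p 0.255). Rgs1 was also called in 6DKO, at 0.97 (SE 0.18, limma adjusted p 0.0147), and not in WT (0.58, limma adjusted p 0.0996), with an interaction of 0.39 (limma adjusted p 0.882). Its call in 6DKO was lost without the trend (adjusted p 0.09), in a fit of the 2 groups alone (adjusted p 0.0985), without 6DKO IL-33 replicate 1 (adjusted p 0.0529), 2 (adjusted p 0.0617) or 3 (adjusted p 0.0637), and without the libraries that carry macrophage or natural killer genes (0.73, adjusted p 0.4).

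Some markers of other cells were also called after IL-33. In the average over genotypes, limma called no T cell, natural killer cell, macrophage or monocyte, neutrophil, eosinophil, stromal or endothelial marker. H2-Ab1 and H2-Eb1 were 2 of 7 dendritic cell markers called higher after IL-33 averaged over the genotypes, against 9.06% of tested genes. That list summed to between 3.59 and 100.5 FPKM under PBS, between 206 and 325 FPKM in WT IL-33 and between 512 and 625 FPKM in 6DKO IL-33, with H2-Ab1 the most abundant. Its marker Flt3 reached at most 0.213 FPKM and Clec9a was listed at 0. The 6 B cell markers summed to at most 8.90 FPKM under PBS and to 3.55 to 26.9 FPKM after IL-33, with Cd79b the most abundant and 1 of 6 called higher in the average, and Ms4a1 and Pax5 listed at 0. The 5 mast cell or basophil markers summed to between 42.9 and 89.3 FPKM under PBS and between 17.8 and 40.1 FPKM after IL-33, nearly all of it Cpa3, 1 of 5 called lower in the average, with Mcpt8 listed at 0. The 4 ILC3 markers summed to between 8.86 and 65.6 FPKM under PBS and between 50.7 and 79.8 FPKM after IL-33, with Il17a the most abundant and 1 of 4 called higher in the average, and Il23r listed at 0. The 3 erythroid markers summed to between 12.8 and 45.4 FPKM under PBS and between 3.60 and 9.76 FPKM after IL-33, with Hba-a1 the most abundant and 1 of 3 called lower in the average. Epcam, 1 of 4 epithelial markers and called lower in the average, lay between 16.4 and 54.0 FPKM under PBS and at most at 8.71 FPKM after IL-33, while Sftpc reached 97.2 FPKM in 6DKO IL-33 replicate 3. Cd28, the 1 of 10 T cell markers called higher in 6DKO, against 3.13% of tested genes, and named after its values were seen, was read at 1.34, 0.381 and 0.0894 FPKM in 6DKO PBS and at 5.69, 8.20 and 11.3 FPKM in 6DKO IL-33. Cd28 rose there by 2.58 (SE 0.61, limma adjusted p 0.0466), with an interaction of 2.43 (limma adjusted p 0.791). The calls of cell markers, those of ILC2s included, were not refitted under the alternatives. The part of these markers' cells in the receptor values was not tested. In such bulk libraries, fewer cells that carry a receptor and less of its RNA per cell cannot be told apart.

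Of the receptors, 5 lie on mouse chromosome 9. In the GRCm38 annotation, Ccr9 is at chr9:123678439-123784330, Cxcr6 at chr9:123806475-123811760 and Ccr2 at chr9:124101950-124113557, all on the plus strand, with Xcr1, Ccr1, Ccr1l1 and Ccr3 between Cxcr6 and Ccr2. Ccr8, at chr9:120092114-120094906, and Ccr4, at chr9:114490316-114504916, lie apart from them. Of the neighbours, Ccr2 fell after IL-33 in both genotypes, and Cxcr6 and Ccr9 were not called. Exons of Ccr9 overlap those of 3 other genes, among them Slc6a20a on the opposite strand. Whether reads were counted by strand is not given in the sources used here, so reads of these genes cannot be told apart. Of the 75-base stretches in Ccr9 transcripts, 1.89% also occur in Gm17200.

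**Figure D3:**
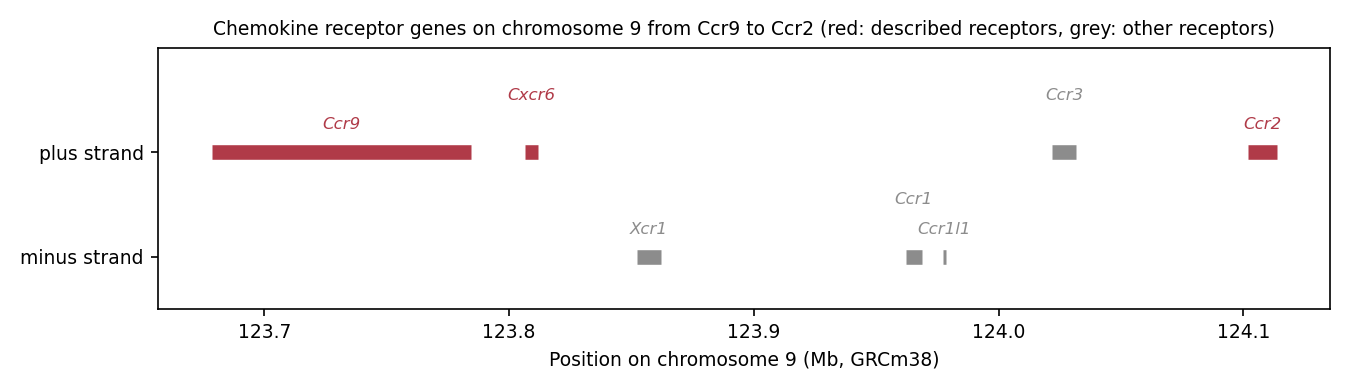
The horizontal axis is the position on chromosome 9 in Mb (GRCm38) from Ccr9 to Ccr2, with genes on the plus strand above and on the minus strand below, red for the described receptors and grey for other chemokine receptors. Ccr9 and Cxcr6 lie side by side, and Ccr3 lies between them and Ccr2 on the same strand.

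The promoters of Ccr2 and Ccr8 are shown because both genes fell after IL-33 in both genotypes. RefSeq promoters of 300 bases around the gene start (GRCm38.p6) were matched by symbol for 8 of the 10 receptors, all but Ccr7 and S1pr1. They were searched on both strands for the letters AGATAA of GATA factors, TGACTCA of AP-1, GGGANTTTC of NF-kB, CCACCC of KLF factors and TGTTTAC of FOXO factors, which occur in 11.2%, 5.20%, 1.11%, 31.5% and 3.65% of the 32851 RefSeq promoters. Capitals mark the matches, which describe the window and do not show binding. The Ccr2 promoter, chr9:124101933-124102232 on the plus strand, holds 1 GATA match. The Ccr8 promoter, chr9:120091883-120092182 on the plus strand, holds 1 GATA and 1 KLF match. All of these lie on the opposite strand.
Ccr2: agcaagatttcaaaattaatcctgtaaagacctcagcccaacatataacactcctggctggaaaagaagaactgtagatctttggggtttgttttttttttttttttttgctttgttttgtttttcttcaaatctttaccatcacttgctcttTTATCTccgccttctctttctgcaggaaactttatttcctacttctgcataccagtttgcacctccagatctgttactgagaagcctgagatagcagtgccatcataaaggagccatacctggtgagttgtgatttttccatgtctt
Ccr8: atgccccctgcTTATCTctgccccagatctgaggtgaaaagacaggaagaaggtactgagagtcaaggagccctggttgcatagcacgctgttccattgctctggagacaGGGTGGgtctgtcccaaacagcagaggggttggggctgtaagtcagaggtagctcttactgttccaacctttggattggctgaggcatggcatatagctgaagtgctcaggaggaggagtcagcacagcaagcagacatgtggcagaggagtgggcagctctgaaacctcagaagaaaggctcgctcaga
Cxcr4, called higher with Ccr7, has none of these letters in its window, and neither has Cxcr6, which was not called. Matches also lie in receptors that were not called. These are GATA in 1 of 2 Ccr6 windows, AP-1 in Ccr4, and KLF in Ccr9 and S1pr4.

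Tested genes whose values followed a receptor most closely over the 12 libraries were found by the root mean square (RMS) difference of centred log2(FPKM + 1), among 7411 genes that averaged 5 FPKM or more. For Ccr8 they were Cd300a (RMS difference 0.141) and Gadd45b (RMS difference 0.155), against an RMS of 0.482 of Ccr8 around its own mean. For Ccr2, with an RMS of 0.867, they were Ahcyl2 (RMS difference 0.22) and Il2ra (RMS difference 0.23), which encodes the alpha chain of the IL-2 receptor. For Cxcr6, with an RMS of 0.193, they were Fam173a (RMS difference 0.0973) and Myl6 (RMS difference 0.138). Cxcr4, with an RMS of 0.598, was followed by Rab8b (RMS difference 0.215) and Slc25a51 (RMS difference 0.281). In units of log2, the differences were wider for the low receptors. Dusp14 (RMS difference 0.763) and Irf4 (RMS difference 0.826) were nearest to Ccr7, with an RMS of 2.13, and Orc5 (RMS difference 0.47) and Dnaaf2 (RMS difference 0.504) to S1pr1, with an RMS of 1.65. Xrn2 (RMS difference 0.302) and Glrx (RMS difference 0.319) were nearest to Ccr4, with an RMS of 1.16. Zfp219 (RMS difference 0.61) and Hmgn1 (RMS difference 0.652) were nearest to Ccr9, with an RMS of 1.21, and Clp1 and Snx13 (RMS difference 0.363 each) to S1pr4, with an RMS of 0.711. Ccr6, which averaged under 10 FPKM, was not compared. These distances describe the libraries and carry no test.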

How the data were processed

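The authors deposited 1 table of FPKM per library. The submitters' processing notes name TopHat2 2.1.1, Bowtie2, Cuffdiff 2.2.1 and the mm10 build. The study's methods name another aligner version and another library kit than the labels do, so the strand setting is not known. FPKM are not counts, so they were analysed as log2(FPKM + 1) with limma 3.58.1 in R 4.3.3, with 4 group means, 8 residual degrees of freedom and a trended prior. Tests were two-sided, adjusted by Benjamini-Hochberg over the 11471 genes that averaged 0.5 FPKM or were listed, and called at an adjusted p under 0.05. Single values were compared by exact permutation in Python 3.11.15. The code was tested on simulated data. No libraries were identical. Some genes are not reported here.

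The members and lists were chosen with earlier results of these data known. Named genes are all members, up to 4 called genes of a list and comparison with the largest difference, and the 2 genes nearest to each member that averaged 10 FPKM or more. The relative value of a read came from genes under 3 FPKM in every library. Whole reads were searched for up to 400 reads in the lowest library, a limit raised after seeing the data. Alternatives were a pseudocount of 0.1, other filters, scalings, priors, weights and sample sets, and a replicate block.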

Additional observations from a re-analysis of the deposited data

Results flagged for a closer look

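Of all tested genes, 3 differed between the genotypes in their response to IL-33 by limma's interaction test, and 0 of the 10 receptors did. Of these, 2 are named after their values were seen. Gm5547 differed by -5.61 (SE 0.61, limma adjusted p 0.00997) and was listed at 0 in all 3 WT PBS libraries, against 23.7, 18.1 and 41.5 FPKM in 6DKO PBS. Mterf2 differed by 4.06 (SE 0.53, limma adjusted p 0.0411) and was listed at 0 in all 3 6DKO PBS libraries, against 8.15, 10.2 and 7.20 FPKM in WT PBS.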

How the results depend on the processing

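Over the alternatives, 1275 values of the receptors neither turned direction nor changed side of the threshold, among them Ccr6 differences of 0, 36 lost a call, 5 gained one and 44 turned direction, none of which was called in either direction. The 5 gained calls came in fits that leave libraries out, which hold fewer samples. The cause of these changes was not tested. Ccr4 had 8 reads in WT PBS replicate 2, at a relative depth of 0.889, and 207 in WT PBS replicate 1, at 0.739.

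In WT, 2 receptors were called after IL-33 and 1 without the trend, with array weights, in a fit of the groups compared alone and without the 6DKO libraries that carry macrophage or natural killer genes. That last setting, chosen after seeing the data, had fewer called receptors in 6DKO and in the average, and also fewer called genes among all those tested. It left 1 6DKO IL-33 library, assumed to vary like the others. With each library left out in turn, the number called ran from 1 to 3 in 6DKO (1 without 6DKO IL-33 replicate 1 or 2), from 2 to 4 in the average (2 without WT IL-33 replicate 3 or 6DKO IL-33 replicate 3) and from 0 to 1 between genotypes under PBS (1 without WT PBS replicate 3 or 6DKO PBS replicate 3). Among all 11471 tested genes, the number called then ran from 163 to 516 in 6DKO and from 705 to 1277 in the average. Between genotypes under PBS it ran from 20 to 216.

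With quantile normalization, differences turned for Ccr6, to -0.02 in 6DKO and -0.14 in the average. Between genotypes, quantile normalization put Ccr8 at 0.04 and Ccr9 at -0.06 under PBS and Ccr8 at 0.01 under IL-33, and array weights put Ccr9 at -0.29 under PBS. Without the PBS libraries with the most zeros, also chosen after seeing the data, WT PBS replicate 3 stands alone in its group and is assumed to vary like the others. There S1pr4 was at 0.22 in WT, and Ccr4 at -0.04 and Cxcr6 at 0.04 in the average. Between genotypes under PBS, it put Ccr9 at -1.60 and Cxcr4 at -0.18, and in the interaction Ccr8 at 0.24, Ccr9 at 1.10 and S1pr1 at -0.06. Without the libraries that carry macrophage or natural killer genes, Cxcr6 was at -0.02 and S1pr1 at -0.98 under PBS, S1pr4 at 0.06 under IL-33 and Cxcr4 at -0.12 in the interaction.

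With 1 library left out, S1pr4 ranged from -0.06 to 0.33 in the average after IL-33. Between genotypes under PBS, Ccr8 ranged from -0.20 to 0.01, Ccr9 from -0.83 to 0.89, Cxcr4 from -0.15 to 0.57, Cxcr6 from -0.11 to 0.10 and S1pr1 from -1.15 to 1.23. Under IL-33, Ccr8 ranged from -0.30 to -0.01 and Ccr9 from -0.97 to 0.08. In the interaction, Ccr8 ranged from -0.20 to 0.09, Ccr9 from -1.39 to 0.33, Cxcr4 from -0.23 to 0.49 and S1pr1 from -0.37 to 2.0. Ccr2 ranged there from 0.08 to 0.41.

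Among all genes, 71 were called between genotypes under PBS, against 33 with no filter, 36 with quantile normalization, 1 with array weights and 1 in a fit of the groups alone. Under IL-33 the 1 called gene became 60 with array weights, 2 with a pseudocount of 0.1 or a stricter filter and 0 with quantile normalization or the groups alone. The 359 genes called in 6DKO became 224 with array weights. The 3 genes of the interaction became 5 with a pseudocount of 0.1, 7 without the trend and 1 with array weights. Leaving out 1 library gave 236, 272 and 257 in place of 502 genes in WT (without WT IL-33 replicates 1, 2 and 3) and 166, 170 and 163 genes in 6DKO (without 6DKO IL-33 replicates 1, 2 and 3). Between genotypes under PBS it gave 20, 23 and 28 (without 6DKO IL-33 replicates 1, 2 and 3), 23, 26 and 32 (without WT IL-33 replicates 1, 2 and 3), 181, 154 and 151 (without 6DKO PBS replicates 1, 2 and 3) and 216 (without WT PBS replicate 3). Between genotypes under IL-33 it gave 0 to 4, and in the interaction 0 (without WT IL-33 replicate 1 or 2 or 6DKO IL-33 replicate 1) to 30 (without 6DKO PBS replicate 1). Without the libraries that carry macrophage or natural killer genes, 70 genes were called in 6DKO, 506 in place of 1039 in the average, 16 between genotypes under PBS, 28 under IL-33 and 17 in the interaction. Without the PBS libraries with the most zeros, with 1 WT PBS library, the counts were 758 in WT, 968 in 6DKO, 1642 in the average, 457 between genotypes under PBS and 178 in the interaction.

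Replicate numbers did not pair libraries, with 0 of 18 correlations between same-numbered libraries over 0.1 (-0.0468 to 0.0447). With the replicate number as a block, the 71 genes between genotypes under PBS became 17, the 359 in 6DKO 236 and the 3 of the interaction 1. With this block, 2 receptors were called in WT, 3 in 6DKO and 3 in the average, where Cxcr4 had an adjusted p of 0.0668, Adrbk1 of 0.0748 and Ccl17 of 0.0659, and Ltb4r1 under PBS of 0.103.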
